A study of Mus musculus with 12 samples.

Results

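The 37 genes described here form the cell cycle machinery of the mouse liver together with markers of dividing cells: cyclins and their kinases, the replicative helicase, enzymes that supply deoxynucleotides, mitotic kinases and checkpoint proteins, and inhibitors of cyclin-dependent kinases. They were found as the rows of the deposited expression table whose gene symbol is on a fixed list of 37 symbols. All 37 symbols matched 1 row each of the 54532 genes in the table, and all 37 were among the 14353 genes that had on average 10 or more sequenced fragments per mouse and were tested.

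A cell that leaves rest first makes D-type cyclins, which activate Cdk4 and free E2F transcription factors, and E2F then switches on the genes for origin licensing, DNA synthesis and deoxynucleotide supply. Later in the cycle the mitotic genes are switched on, and cyclins A and B with Cdk1, the Polo and Aurora kinases, the spindle checkpoint and the anaphase-promoting complex carry the cell through division. Most hepatocytes of the adult liver rest outside the cycle and can enter it again after injury, and macrophages, endothelial, stellate and bile duct cells of the liver can divide as well.

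Liver RNA came from 12 male C57BL/6J mice that had been given their diets from 5 weeks of age for 26 weeks, with 3 mice in each of 4 groups. ND-fed mice received a normal diet, control mice a high-fat diet, and the other 2 groups the high-fat diet supplemented with 1% HYA or with 1% LA. LA is linoleic acid, a common dietary fatty acid, and HYA is the hydroxy fatty acid into which lactic acid bacteria of the gut convert it. The labels give no allele beyond the strain, the control, HYA and LA groups share the high-fat diet, and each library is 1 mouse. Because whole liver was sequenced, fewer cells of a type and less RNA per cell cannot be told apart, and the cell types that carried the transcripts are not resolved.

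Expression was given as FPKM, the sequenced fragments of a gene scaled by its length and by the library total, so that levels can be set side by side per length. Each library held 17169064 to 25220880 fragments on genes. The library total behind the deposited values was 0.917 to 0.953 times the fragments on genes in the ND-fed mice, 1.03 to 1.10 times in the control mice, 0.980 to 1.01 times in the HYA-treated mice and 1.05 to 1.06 times in the LA-treated mice, so the scaling differed by diet. Hepatocyte markers were high in every library, with at least 30136 summed FPKM over 12 genes, and their sums differed by diet. Fold changes are given on the scale of log2(FPKM + 0.1), which understates the change of the lowest genes, and a gene is called changed at a Benjamini-Hochberg adjusted p of 0.05 over the 14353 genes in 1 limma fit of all 12 mice.

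Most cell cycle genes were weakly expressed in these livers, with 22 of the 37 averaging 1 FPKM or more across the mice and 15 below it. The cyclin D gene *Ccnd1* was the highest, at a mean of 15.5 FPKM, followed by *Pcna* (10.7 FPKM) and *Cdk4* (9.98 FPKM), while the checkpoint kinase *Bub1* (0.157 FPKM) and the origin licensing factor *Cdc6* (0.148 FPKM) were the lowest. Behind these values stood between 1 and 2567 fragments per gene and mouse, with a median of the genes' means of 142 fragments. Counting error is therefore part of the spread of the lowest genes, and *Bub1* in ND mouse 2 rested on 1 fragment.

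**Figure D1:**
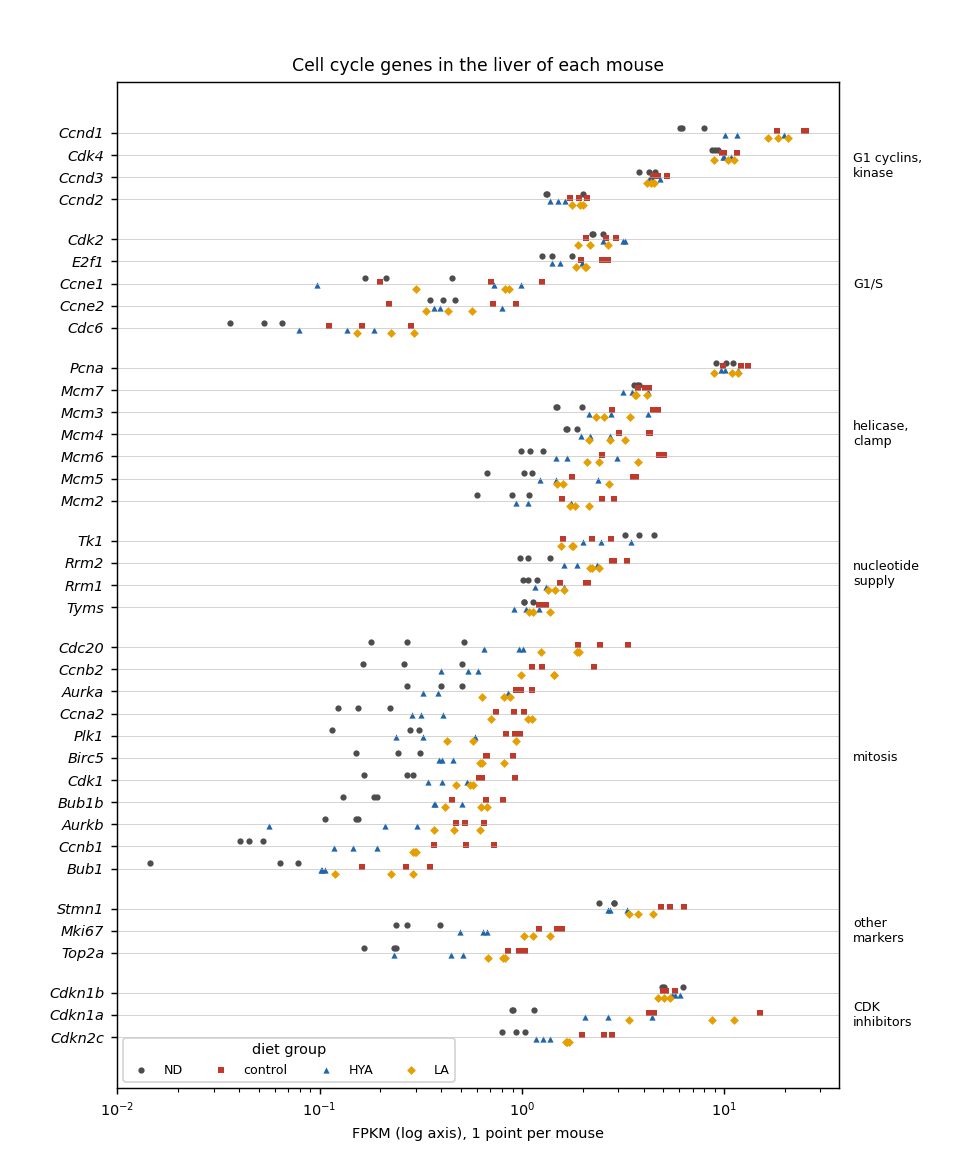
FPKM of the 37 genes in each of the 12 mice on a log axis, 1 point per mouse, with the genes grouped by role and the diets marked by symbol. In the mitotic group the 3 ND points lie to the left of the 3 control points for every gene, and for most of them the HYA points lie between both, whereas the points of Cdk4, Ccnd3, Mcm7, Pcna and Cdkn1b lie close together on the deposited scale.

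The question of the first comparison was how the high-fat diet changed these genes. In control mice 26 of the 37 genes were higher than in ND-fed mice and 1, *Tk1*, was lower, and 10 did not pass the test. Over all genes tested 18.2% were called higher and 15.5% lower. The median log2 fold change was 1.23 for the 37 genes and -0.01 for all genes tested. Every control mouse was above every ND-fed mouse for 28 of the 37 genes, against 22.8% of all genes tested. For 17 genes all 9 mice on a high-fat diet, whatever the supplement, were above all 3 ND-fed mice, which held for 12.5% of all genes tested.

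The second comparison asked how HYA changed the response to the high-fat diet. In HYA-treated mice 7 of the 37 genes were lower than in control mice and none was higher, where 1.25% of all genes tested were called lower. The 7 were *Stmn1*, *Cdkn2c*, *Ccnb1*, *Mki67*, *Ccna2*, *Top2a* and *Cdc20*, and all 7 were among the 26 raised in control mice. The log2 fold change was negative for 34 of the 37 genes, with a median of -0.71 against 0.00 for all genes tested, and 24 of the 37 had a p under 0.05 before adjustment, as did 18.2% of all genes tested. The 3 HYA-treated mice were below all 3 control mice for 18 of the 37 genes, against 11% of all genes tested.

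The count of 7 depended on single mice and on the fit. Without HYA mouse 2, without control mouse 1, or in a fit of the 6 mice of both groups alone, none of the 37 genes was called, and 3 were called without control mouse 3. *Stmn1*, *Cdkn2c* and *Ccnb1* kept the call without any other of the 6 mice, whereas *Ccna2* and *Cdc20* kept it only without control mouse 2. The 7 log2 fold changes stayed negative in each of these fits. The deposited scaling also matters for all genes: scaled as TPM, which divides each library by its summed expression, the median over all genes shifted from -0.01 to 0.22 in control against ND-fed mice and the share of called genes that were higher moved from 54.1% to 86.0%. In that fit 32 of the 37 genes were higher and 1 was lower. In HYA-treated against control mice that share moved from 47.8% to 17.8% and the median over all genes from 0.00 to -0.12. There 11 of the 37 were lower, beside 495 of all genes tested, where the main fit had 180. Median-ratio scaling gave a share of 53.9% and a median of -0.01 in control against ND-fed mice, with 26 of the 37 higher and 1 lower. In HYA-treated against control mice it gave 47.6% and 0.00, with 8 of the 37 and 184 of all genes tested lower.

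**Figure D2:**
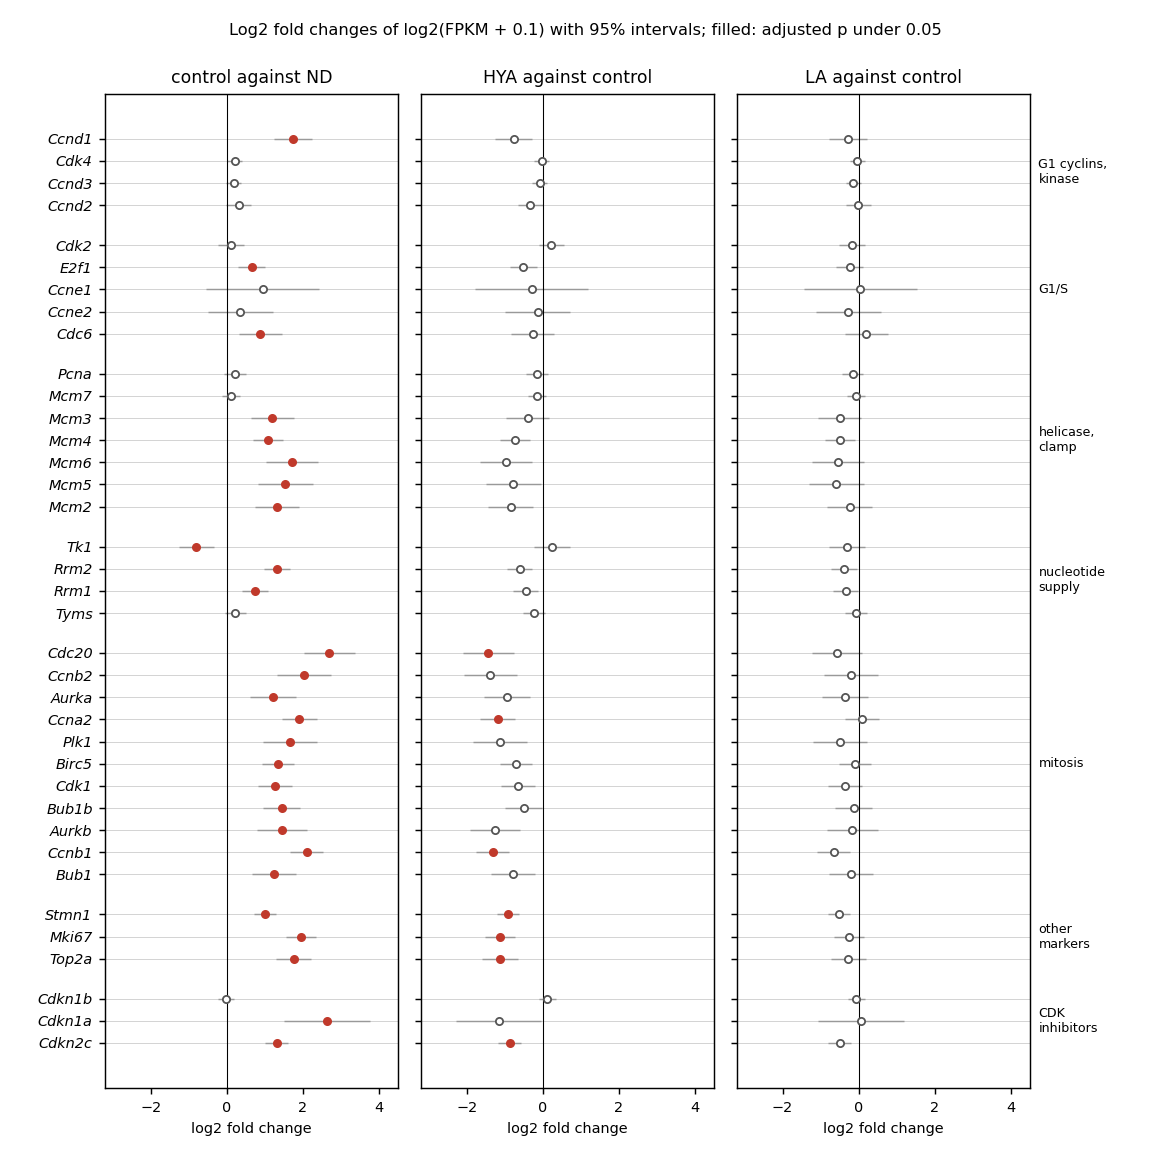
Log2 fold changes of the 37 genes with their 95% intervals from the limma fit, with control against ND on the left, HYA against control in the middle and LA against control on the right. Filled points have an adjusted p under 0.05, which are 27 genes on the left, 7 in the middle and 0 on the right.

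The promoters of the mitotic and of the replication genes were searched for known elements. Elements known from cell cycle promoters are the CCAAT box bound by NF-Y, the cell cycle genes homology region (CHR) through which the DREAM and MuvB complexes act on mitotic genes, and the E2F sites of replication genes. RefSeq promoters (GRCm38.p6) were found for 30 of the 37 genes, and the 250 bases before the start site were searched on both strands for CCAAT, for TTTGAA as the CHR and for TTCCCGC or TTGGCGC as E2F letters. The CCAAT and E2F letters can share bases. The windows below are the 150 bases before the start of 3 mitotic or marker genes and 2 helicase genes, with CCAAT (reverse complement ATTGG), CHR (reverse complement TTCAAA) and E2F letters in capitals. They are examples of these roles, and other genes of the same roles had other elements. Each window lies outside the deposited coordinates of its own gene.
Ccnb2 (chr9:70421555-70421704, minus strand): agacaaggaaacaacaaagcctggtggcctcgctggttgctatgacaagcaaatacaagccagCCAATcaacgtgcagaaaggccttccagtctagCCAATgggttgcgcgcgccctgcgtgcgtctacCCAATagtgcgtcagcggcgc
Mki67 (chr7:135716380-135716529, minus strand): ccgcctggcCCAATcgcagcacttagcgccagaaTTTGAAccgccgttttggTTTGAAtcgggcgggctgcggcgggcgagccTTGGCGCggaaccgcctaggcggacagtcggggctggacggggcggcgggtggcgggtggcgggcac
Top2a (chr11:99024190-99024339, minus strand): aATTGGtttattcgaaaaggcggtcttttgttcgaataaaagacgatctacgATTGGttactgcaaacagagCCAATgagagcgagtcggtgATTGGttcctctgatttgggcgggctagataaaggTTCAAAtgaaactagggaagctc
Mcm6 (chr1:128359706-128359855, minus strand): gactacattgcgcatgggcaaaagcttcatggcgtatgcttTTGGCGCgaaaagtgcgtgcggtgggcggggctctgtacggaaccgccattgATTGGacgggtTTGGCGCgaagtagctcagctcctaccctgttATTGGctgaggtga
Mcm5 (chr8:75109359-75109508, plus strand): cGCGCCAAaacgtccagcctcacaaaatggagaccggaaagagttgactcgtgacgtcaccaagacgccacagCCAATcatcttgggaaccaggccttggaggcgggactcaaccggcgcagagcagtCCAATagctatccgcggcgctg

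The *Ccnb2* window holds 3 CCAAT boxes, the *Top2a* window holds CCAAT letters on both strands and a CHR, and *Mki67* has all the elements, whereas *Mcm6* and *Mcm5* have E2F letters and CCAAT boxes but no CHR. Genes not shown differed from these. *Mcm2* had a CHR and no E2F letters, *Mcm3* and *Pcna* had no E2F letters, *Aurka*, *Bub1*, *Bub1b* and *Plk1* had no CHR, and *Birc5* had none of the elements. Among the mitotic and marker genes with a promoter, 10 of 11 (90.9%) had a CCAAT box and 5 of 11 (45.5%) a CHR, and 3 of 11 (27.3%) had E2F letters. Among the G1/S, helicase and nucleotide genes the counts were 9 of 14 (64.3%) for CCAAT, 1 of 14 (7.14%) for the CHR and 6 of 14 (42.9%) for E2F. Of all 27025 promoters, 37.5% had a CCAAT box, 18.3% a CHR and 6.45% E2F letters. A match describes these letters and does not show a site in use.

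*Ccnd1* (chr7:144929931-144939925, minus strand) is the cyclin D1 gene, which couples growth signals to Cdk4. On average over the mice it had the highest FPKM of the cyclin genes on the fixed list. It was measured at 7.97, 6.20 and 6.05 FPKM in the ND-fed mice, 25.4, 24.9 and 18.2 in the control mice, 10.1, 11.6 and 19.8 in the HYA-treated mice and 16.5, 20.8 and 18.5 in the LA-treated mice. The ND-fed mice lay below all other mice, control mice 1 and 2 held the highest values, and HYA mouse 3 and LA mice 2 and 3 lay within the control range. *Ccnd1* was 3.39-fold higher in control mice than under ND, with a log2 fold change of 1.74 ± 0.22 (SE, adjusted p = 0.000183), and in HYA-treated against control mice its log2 fold change was -0.76 ± 0.22 (SE, adjusted p = 0.0961), which did not pass. Of the other G1 genes, *Ccnd2*, *Ccnd3* and the kinase gene *Cdk4* had means of 1.51 to 1.92, 4.20 to 4.78 and 9.04 to 10.5 FPKM over the 4 groups, and none of them was called in any comparison with the deposited scaling. Scaled as TPM or by recovered fragments, all 4 G1 genes were called higher in control mice. *Cdk4* overlaps *Tspan31* on the opposite strand, at means of 85.0 FPKM in ND-fed and 138 in control mice, so its level is uncertain if reads were not assigned by strand.

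Of the 5 genes of the G1 to S transition, *E2f1* and *Cdc6* were higher in control mice than under ND. *E2f1*, the transcription factor that induces replication genes, was at 1.77, 1.26 and 1.41 FPKM in the ND-fed mice, 2.68, 1.96 and 2.49 in the control mice, 1.54, 1.42 and 1.98 in the HYA-treated mice and 2.05, 1.86 and 2.08 in the LA-treated mice. Its log2 fold change in control against ND-fed mice was 0.65 ± 0.16 (SE, adjusted p = 0.00977). *Cdc6*, which loads the helicase onto origins, was at 0.0653, 0.0361 and 0.0532 FPKM in the ND-fed mice, 0.285, 0.161 and 0.111 in the control mice, 0.0789, 0.137 and 0.186 in the HYA-treated mice and 0.224, 0.152 and 0.292 in the LA-treated mice, with a log2 fold change of 0.87 ± 0.26 (SE, adjusted p = 0.0228). The call of *Cdc6* passed in 10 of 15 alternatives and was lost without control mouse 1 (adjusted p = 0.0945), without ND mouse 2 (adjusted p = 0.0735) and without ND mouse 3 (adjusted p = 0.0513). Every control mouse exceeded every ND-fed mouse for both genes, and the HYA and control ranges overlapped. The E-type cyclins *Ccne1* and *Ccne2* and their kinase gene *Cdk2* passed in no comparison, and *Ccne1* varied widely within groups, from 0.199 to 1.26 FPKM among the control mice and from 0.0969 to 0.988 among the HYA-treated mice.

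The Mcm genes encode the ring-shaped helicase that unwinds DNA at replication forks, and *Pcna* encodes the clamp that holds the polymerases on it. *Mcm2*, *Mcm3*, *Mcm4*, *Mcm5* and *Mcm6* were higher in control mice than under ND, with log2 fold changes of 1.09 to 1.73, whereas *Mcm7* at 0.12 (95% interval -0.12 to 0.35) and *Pcna* at 0.21 (95% interval -0.08 to 0.49) were not called. All 7 genes were called higher when scaled as TPM. *Mcm6* showed the largest difference of the group and was at 0.988, 1.09 and 1.28 FPKM in the ND-fed mice, 5.03, 4.76 and 2.49 in the control mice, 1.47, 1.67 and 2.95 in the HYA-treated mice and 2.09, 2.41 and 3.74 in the LA-treated mice. Its log2 fold change was 1.73 ± 0.31 (SE, adjusted p = 0.00159) in control against ND-fed mice. Control mouse 3 was far below the other control mice and within the range of the HYA- and LA-treated mice. *Mcm5* had the same order of control mice, at 1.03, 1.12 and 0.669 FPKM in the ND-fed mice, 3.68, 3.54 and 1.78 in the control mice, 1.23, 1.48 and 2.38 in the HYA-treated mice and 1.60, 1.49 and 2.70 in the LA-treated mice. Its log2 fold change was 1.54 ± 0.33 (SE, adjusted p = 0.00447). *Mcm3* was at 1.47, 1.49 and 1.99 FPKM in the ND-fed mice, 4.71, 4.47 and 2.79 in the control mice, 2.16, 2.75 and 4.22 in the HYA-treated mice and 2.33, 2.56 and 3.42 in the LA-treated mice, with a log2 fold change of 1.20 ± 0.26 (SE, adjusted p = 0.00444), and HYA mouse 3 lay among the control mice.

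*Mcm2*, with 0.892, 1.09 and 0.600 FPKM in the ND-fed mice, 2.85, 2.49 and 1.58 in the control mice, 0.934, 1.07 and 1.74 in the HYA-treated mice and 1.83, 1.73 and 2.15 in the LA-treated mice, again had its lowest control value in control mouse 3, and its log2 fold change was 1.32 ± 0.27 (SE, adjusted p = 0.00327) in control against ND-fed mice. *Mcm4* was at 1.68, 1.88 and 1.66 FPKM in the ND-fed mice, 4.26, 4.29 and 3.01 in the control mice, 1.95, 2.18 and 2.72 in the HYA-treated mice and 2.14, 2.73 and 3.25 in the LA-treated mice, with a log2 fold change of 1.09 ± 0.18 (SE, adjusted p = 0.000868), and it was the helicase gene whose HYA range lay wholly below the control range. In HYA-treated against control mice the 7 helicase and clamp genes had log2 fold changes of -0.98 to -0.15 with a median of -0.72, and none was called, the lowest adjusted p being 0.0568 for *Mcm4*. *Mcm7*, at group means of 3.63 to 4.03 FPKM, overlaps *Cops6* on the opposite strand, which was at 32.8 FPKM in ND-fed and 31.8 in control mice and was not called either.

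Of the genes that supply deoxynucleotides, both subunits of ribonucleotide reductase were higher in control mice and the thymidine kinase gene was lower. *Rrm2*, the regulated small subunit, was at 1.07, 1.39 and 0.984 FPKM in the ND-fed mice, 3.31, 2.87 and 2.80 in the control mice, 1.88, 1.61 and 2.35 in the HYA-treated mice and 2.18, 2.22 and 2.40 in the LA-treated mice. Its log2 fold change was 1.32 ± 0.15 (SE, adjusted p = 8.58e-05) in control against ND-fed mice and -0.61 ± 0.15 (SE, adjusted p = 0.0587) in HYA-treated against control mice, where the 3 HYA-treated mice were below the 3 control mice without passing the test. *Rrm1*, the large subunit, was at 1.18, 1.02 and 1.08 FPKM in the ND-fed mice, 2.08, 2.12 and 1.54 in the control mice, 1.16, 1.32 and 1.62 in the HYA-treated mice and 1.35, 1.45 and 1.61 in the LA-treated mice, with a log2 fold change of 0.74 ± 0.15 (SE, adjusted p = 0.00328) in the first comparison. *Tyms*, the thymidylate synthase gene, was called in no comparison and had means of 1.06 to 1.26 FPKM.

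*Tk1*, which encodes the thymidine kinase of the salvage pathway, was the 1 gene of the 37 called lower on the high-fat diet. It was at 3.24, 3.82 and 4.49 FPKM in the ND-fed mice, 2.23, 2.76 and 1.61 in the control mice, 2.004, 2.47 and 3.46 in the HYA-treated mice and 1.57, 1.78 and 1.79 in the LA-treated mice. The 3 ND-fed mice were above all control and LA-treated mice, and HYA mouse 3 reached into the ND range. The log2 fold change was -0.80 ± 0.22 (SE, adjusted p = 0.0149) in control and -1.11 ± 0.22 (SE, adjusted p = 0.00285) in LA-treated against ND-fed mice. In control against ND-fed mice the call was lost without control mouse 3 (adjusted p = 0.0524) and without ND mouse 3 (adjusted p = 0.0561). *Tk1* overlaps *Afmid* on the opposite strand, a gene of tryptophan breakdown with means of 13.4 FPKM under ND, 4.48 in control, 7.60 with HYA and 4.50 with LA. The strand setting of the counting is not given in the sources used here, so reads of both genes cannot be told apart and the *Tk1* values are uncertain.

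All 11 mitotic genes were higher in control mice than under ND, with log2 fold changes of 1.21 to 2.70 and a median of 1.45. All 11 had control values above every ND-fed mouse. Of all genes tested 18.2% were called higher and 22.8% had every control mouse above every ND-fed mouse. In HYA-treated mice all 11 had a negative log2 fold change against control mice, with a median of -1.13. The HYA range was below the control range for 10 of the 11, against 11% of all genes tested. *Ccna2*, *Ccnb1* and *Cdc20* were called, where 1.25% of all genes tested were called lower. The summed FPKM of the 11 genes was 1.94 to 2.51 under ND, 9.02 to 11.5 in control, 4.07 to 4.50 with HYA and 7.19 to 9.12 with LA. The sums of the HYA-treated mice thus stood apart from those of every other group, above ND and below control and LA.

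*Ccna2* encodes cyclin A2, which acts in S phase and at entry into mitosis (chr3:36564865-36572150, minus strand). It was at 0.223, 0.154 and 0.123 FPKM in the ND-fed mice, 1.03, 0.745 and 0.910 in the control mice, 0.316, 0.405 and 0.287 in the HYA-treated mice and 1.07, 1.13 and 0.703 in the LA-treated mice. The HYA-treated mice formed a group of their own above the ND-fed mice and below all control and LA-treated mice. It differed by 1.91 ± 0.21 (SE, adjusted p = 6.13e-05) on the log2 scale in control against ND-fed mice and by -1.19 ± 0.21 (SE, adjusted p = 0.0235) in HYA-treated against control mice. The gene *Exosc9* overlaps it on the opposite strand and was not called in either comparison, with means of 2.34 FPKM under ND, 2.50 in control, 2.30 with HYA and 2.51 with LA.

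*Ccnb1* encodes cyclin B1, the partner of Cdk1 at entry into mitosis (chr13:100778650-100786570, minus strand), and had the largest ratio of all 37 genes between control and ND-fed mice, 11.8-fold. It was at 0.0405, 0.0448 and 0.0528 FPKM in the ND-fed mice, 0.529, 0.366 and 0.732 in the control mice, 0.147, 0.118 and 0.192 in the HYA-treated mice and 0.289, 0.300 and 0.298 in the LA-treated mice. No group overlapped another, and the order was ND, HYA, LA and control. The ND values rested on 3, 3 and 4 fragments, so the ratio of 11.8 is imprecise. On the log2 scale *Ccnb1* differed by 2.10 ± 0.20 (SE, adjusted p = 2.56e-05) in control against ND-fed and by -1.32 ± 0.20 (SE, adjusted p = 0.0145) in HYA-treated against control mice. The processed pseudogene *Ccnb1-ps* was at means of 0.0781 FPKM under ND, 0.136 in control, 0.0658 with HYA and 0.157 with LA, and how reads shared by both were assigned is not given, so the *Ccnb1* values are uncertain to that extent. *Ccnb2*, the other B-type cyclin gene, was at 0.260, 0.164 and 0.509 FPKM in the ND-fed mice, 1.12, 1.25 and 2.27 in the control mice, 0.539, 0.396 and 0.608 in the HYA-treated mice and 1.44, 1.44 and 0.996 in the LA-treated mice, with a log2 fold change of 2.03 ± 0.32 (SE, adjusted p = 0.000673) in control against ND-fed mice. Its HYA values lay below all control values, and the log2 fold change of -1.38 ± 0.32 (SE, adjusted p = 0.05001) stood at the threshold and was not called.

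*Cdc20* activates the anaphase-promoting complex once the spindle is attached (chr4:118432901-118437352, minus strand). It was at 0.518, 0.270 and 0.179 FPKM in the ND-fed mice, 2.44, 1.90 and 3.33 in the control mice, 0.966, 0.650 and 1.02 in the HYA-treated mice and 1.88, 1.91 and 1.25 in the LA-treated mice. Control mouse 3 held the highest value, and the ND, HYA and control ranges followed each other without overlap. The log2 fold change of 2.70 ± 0.30 (SE, adjusted p = 7.34e-05) in control against ND-fed mice was the largest of the 37 genes, and it was -1.43 ± 0.30 (SE, adjusted p = 0.0385) in HYA-treated against control mice. *Elovl1* overlaps it on the opposite strand, at means of 14.7 FPKM in ND-fed and 17.9 in control mice, a log2 fold change of 0.29.

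*Cdk1*, the kinase that drives mitosis, was at 0.288, 0.166 and 0.271 FPKM in the ND-fed mice, 0.924, 0.617 and 0.636 in the control mice, 0.345, 0.402 and 0.533 in the HYA-treated mice and 0.551, 0.475 and 0.573 in the LA-treated mice. The 3 HYA-treated mice were above the ND-fed mice and below the control mice, and the log2 fold change was 1.27 ± 0.20 (SE, adjusted p = 0.000722) for control against ND-fed mice and -0.64 ± 0.20 (SE, adjusted p = 0.117) for HYA-treated against control mice. *Plk1*, a kinase of spindle assembly and mitotic exit, was at 0.311, 0.115 and 0.278 FPKM in the ND-fed mice, 0.9305, 0.979 and 0.834 in the control mice, 0.586, 0.326 and 0.239 in the HYA-treated mice and 0.939, 0.427 and 0.571 in the LA-treated mice, with a log2 fold change of 1.65 ± 0.32 (SE, adjusted p = 0.00260) in control against ND-fed mice. *Aurka*, the centrosomal Aurora kinase, was at 0.270, 0.398 and 0.506 FPKM in the ND-fed mice, 0.992, 1.13 and 0.934 in the control mice, 0.326, 0.850 and 0.384 in the HYA-treated mice and 0.871, 0.815 and 0.638 in the LA-treated mice, with a log2 fold change of 1.21 ± 0.28 (SE, adjusted p = 0.00670). In these genes single HYA-treated mice came close to the control range, namely mouse 1 for *Plk1* and mouse 2 for *Aurka*. *Aurkb*, the Aurora kinase of the chromosomal passenger complex, was at 0.155, 0.107 and 0.151 FPKM in the ND-fed mice, 0.647, 0.524 and 0.475 in the control mice, 0.210, 0.0562 and 0.302 in the HYA-treated mice and 0.366, 0.462 and 0.624 in the LA-treated mice. HYA mouse 2 was below every ND-fed mouse, and the log2 fold change was 1.45 ± 0.30 (SE, adjusted p = 0.00385) in control against ND-fed mice.

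The checkpoint genes *Bub1* and *Bub1b* hold anaphase back until chromosomes are attached. *Bub1* was at 0.0784, 0.0145 and 0.0639 FPKM in the ND-fed mice, 0.352, 0.161 and 0.266 in the control mice, 0.107, 0.101 and 0.102 in the HYA-treated mice and 0.226, 0.118 and 0.288 in the LA-treated mice, with a log2 fold change of 1.23 ± 0.26 (SE, adjusted p = 0.00442) in control against ND-fed mice. *Bub1b* was at 0.186, 0.191 and 0.130 FPKM in the ND-fed mice, 0.805, 0.668 and 0.452 in the control mice, 0.507, 0.374 and 0.369 in the HYA-treated mice and 0.669, 0.417 and 0.630 in the LA-treated mice, and it was the mitotic gene whose HYA and control ranges overlapped, through HYA mouse 1 and control mouse 3. The log2 fold change of *Bub1b* was 1.44 ± 0.22 (SE, adjusted p = 0.000551) in control against ND-fed mice. *Birc5*, which encodes survivin of the passenger complex, was at 0.151, 0.315 and 0.245 FPKM in the ND-fed mice, 0.902, 0.674 and 0.667 in the control mice, 0.455, 0.389 and 0.404 in the HYA-treated mice and 0.814, 0.634 and 0.620 in the LA-treated mice, with a log2 fold change of 1.35 ± 0.20 (SE, adjusted p = 0.000396). For these and for *Aurka*, *Aurkb*, *Plk1* and *Ccnb2* the HYA log2 fold changes against control lay between -1.38 and -0.50 and were not called.

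The markers *Mki67*, *Top2a* and *Stmn1* were higher in control mice than under ND and lower with HYA than in control mice, all called. *Mki67*, the gene of the Ki-67 protein that coats mitotic chromosomes and is used to count cycling cells (chr7:135689784-135716361, minus strand), was at 0.396, 0.238 and 0.271 FPKM in the ND-fed mice, 1.59, 1.22 and 1.497 in the control mice, 0.672, 0.493 and 0.643 in the HYA-treated mice and 1.38, 1.03 and 1.14 in the LA-treated mice. Groups followed the order ND, HYA, LA and control by their means, and the LA range overlapped the control range while the HYA range did not. Control mice differed from ND-fed mice by 1.95 ± 0.18 (SE, adjusted p = 2.17e-05) on the log2 scale, the lowest adjusted p among the 37 genes, and HYA-treated from control mice by -1.13 ± 0.18 (SE, adjusted p = 0.0156). Mean *Mki67* was 0.302 ± 0.0834 FPKM (SD, n = 3) under ND, 1.43 ± 0.191 in control, 0.603 ± 0.0957 with HYA and 1.18 ± 0.181 with LA.

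*Top2a*, the topoisomerase that untangles sister chromatids (chr11:98992943-99024189, minus strand), was at 0.234, 0.237 and 0.167 FPKM in the ND-fed mice, 0.970, 1.03 and 0.857 in the control mice, 0.509, 0.233 and 0.449 in the HYA-treated mice and 0.828, 0.682 and 0.811 in the LA-treated mice. HYA mouse 2 fell within the ND range, and the other HYA-treated mice lay between ND and control. *Top2a* differed by 1.76 ± 0.21 (SE, adjusted p = 0.000123) on the log2 scale in the first and by -1.13 ± 0.21 (SE, adjusted p = 0.0285) in the second comparison. *Stmn1*, which encodes the microtubule destabiliser stathmin (chr4:134468320-134473843, plus strand), was at 2.84, 2.85 and 2.40 FPKM in the ND-fed mice, 5.42, 4.87 and 6.35 in the control mice, 3.30, 2.73 and 2.67 in the HYA-treated mice and 4.44, 3.76 and 3.38 in the LA-treated mice. HYA mice 2 and 3 lay in the ND range and HYA mouse 1 above it. Its log2 fold change was 1.01 ± 0.13 (SE, adjusted p = 0.000222) in control against ND-fed mice, and its log2 fold change of -0.91 ± 0.13 (SE, adjusted p = 0.0142) in HYA-treated against control mice had the lowest adjusted p of the 37 genes.

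Among the inhibitors of cyclin-dependent kinases, *Cdkn1a* and *Cdkn2c* were raised in control mice. *Cdkn1a*, a target of p53 that halts the cycle (chr17:29090976-29100727, plus strand), was at 1.153, 0.904 and 0.893 FPKM in the ND-fed mice, 4.49, 4.24 and 15.1 in the control mice, 4.43, 2.06 and 2.66 in the HYA-treated mice and 11.2, 8.72 and 3.37 in the LA-treated mice. The mean was 8.08-fold higher in control mice than under ND, but the 3 control mice did not keep together, with mouse 3 alone at 15.1 FPKM, and LA mice 1 and 2 were above LA mouse 3. On the log2 scale control mice differed from ND-fed mice by 2.64 ± 0.51 (SE, adjusted p = 0.00249) and HYA-treated from control mice by -1.16 ± 0.51 (SE, adjusted p = 0.258). *Cdkn2c*, an INK4-type inhibitor that binds Cdk4 and Cdk6 (chr4:109660876-109667189, minus strand), was at 0.932, 0.797 and 1.04 FPKM in the ND-fed mice, 2.79, 2.54 and 1.99 in the control mice, 1.17, 1.27 and 1.39 in the HYA-treated mice and 1.68, 1.71 and 1.65 in the LA-treated mice, and none of its groups overlapped. *Cdkn2c* differed by 1.31 ± 0.14 (SE, adjusted p = 4.50e-05) on the log2 scale in the first and -0.87 ± 0.14 (SE, adjusted p = 0.0145) in the second comparison. *Cdkn1b*, the inhibitor of resting cells, was flat at means of 5.06 to 5.75 FPKM and had a log2 fold change of -0.03 (95% interval -0.24 to 0.19) between control and ND-fed mice.

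LA, the parent fatty acid given at the same dose, was compared with control in the same fit. None of the 37 genes was called in LA-treated against control mice, and the share called was 0% of all genes tested as well, with a lowest adjusted p of 0.488. Without adjustment 396 genes (2.76%) had a p under 0.05, and 6 of them belonged to the 37 (*Stmn1*, *Cdkn2c*, *Ccnb1*, *Mcm4*, *Rrm2* and *Rrm1*), and limma-voom on recovered fragments called no gene either, with 434 under 0.05 before adjustment. The median log2 fold change of the 37 genes was -0.23, and 33 were negative. The 3 LA-treated mice were below the 3 control mice for 7 genes, against 3.8% of all genes tested. For *Ccnb1* the log2 fold change was -0.66 (95% interval -1.10 to -0.22), for *Mki67* -0.26 (95% interval -0.66 to 0.14) and for *Ccna2* 0.09 (95% interval -0.37 to 0.54), and these intervals give the differences that 3 mice a group leave possible.

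HYA carries a hydroxyl group in place of a double bond of LA, and both were given at 1% of the diet, so their groups are matched in dose and time. In HYA-treated against LA-treated mice *Ccna2* was lower, with a log2 fold change of -1.27 ± 0.21 (SE, adjusted p = 0.0322), and no other of the 37 genes was called, where 0.314% of all genes tested were called lower. The mean of *Ccna2* was 2.87-fold higher in LA-treated mice. The call was kept without LA mouse 3 but lost without any other of the 6 mice, at adjusted p values of 0.0728 to 0.168. For 12 genes the 3 HYA-treated mice were below the 3 LA-treated mice, against 11.9% of all genes tested, and 10 of these were mitotic genes or markers. The next 3 by adjusted p were *Mki67* at -0.87 ± 0.18 (SE, adjusted p = 0.0592), *Top2a* at -0.86 ± 0.21 (SE, adjusted p = 0.0831) and *Ccnb2* at -1.18 ± 0.32 (SE, adjusted p = 0.102). None of the helicase genes was called, with 0.10 (95% interval -0.47 to 0.66) for *Mcm3* and -0.44 (95% interval -1.12 to 0.24) for *Mcm6*.

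Against ND-fed mice, 8 of the 37 genes were still higher in HYA-treated mice and 22 in LA-treated mice, where 8.67% and 16.2% of all genes tested were called higher. Of the 37, *Tk1* was lower in LA-treated mice, where 13.4% were called lower. The 8 were *Ccnd1*, *Rrm2*, *Cdc20*, *Mki67*, *Ccna2*, *Birc5*, *Bub1b* and *Ccnb1*, with log2 fold changes of 0.64 (*Birc5*) to 1.27 (*Cdc20*). Leaving out any 1 of the 6 mice gave counts of 3 to 7. *Rrm2* passed in all 16 alternatives, *Ccnd1* in 15 of 16 and *Mki67* in 14 of 15, whereas *Bub1b* passed in 11 of 15, *Cdc20* in 10 of 16, *Ccnb1* in 8 of 15, *Ccna2* in 6 of 15 and *Birc5* in 4 of 15. The median over the 37 genes was 0.48 with HYA and 0.94 with LA, each against ND-fed mice. For 19 genes the 3 HYA-treated mice lay above the ND range, against 17.1% of all genes tested, and for 26 genes the 3 LA-treated mice did, against 23.4%. The ND-fed and the control mice serve in several of these comparisons, which are therefore not independent.

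Mice of 1 group differed in the summed FPKM of the genes of each role. Control mouse 3 had the lowest summed FPKM of the 7 helicase and clamp genes of its group, 25.3 against 37.9 and 35.8, but the highest sum of the 11 mitotic genes, 11.5 against 10.7 and 9.02. HYA mouse 3 had the highest helicase and clamp sum of its group, 30.0 against 20.9 and 22.4, while its mitotic sum of 4.44 was like the 4.50 and 4.07 of the others. Both sums thus ranked the control mice differently, but the genes with higher FPKM weigh most in a sum. Of the 11 mitotic genes, control mouse 3 held the highest value of all 12 mice for 3 and control mouse 1 for 5. For *Plk1*, *Aurka*, *Aurkb*, *Bub1b* and *Birc5* control mouse 3 was the lowest control mouse, as in the helicase and clamp sum. Control mouse 1 held the highest value of all 12 mice for 19 of the 37 genes. The same counts were not made over all genes tested.

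**Figure D3:**
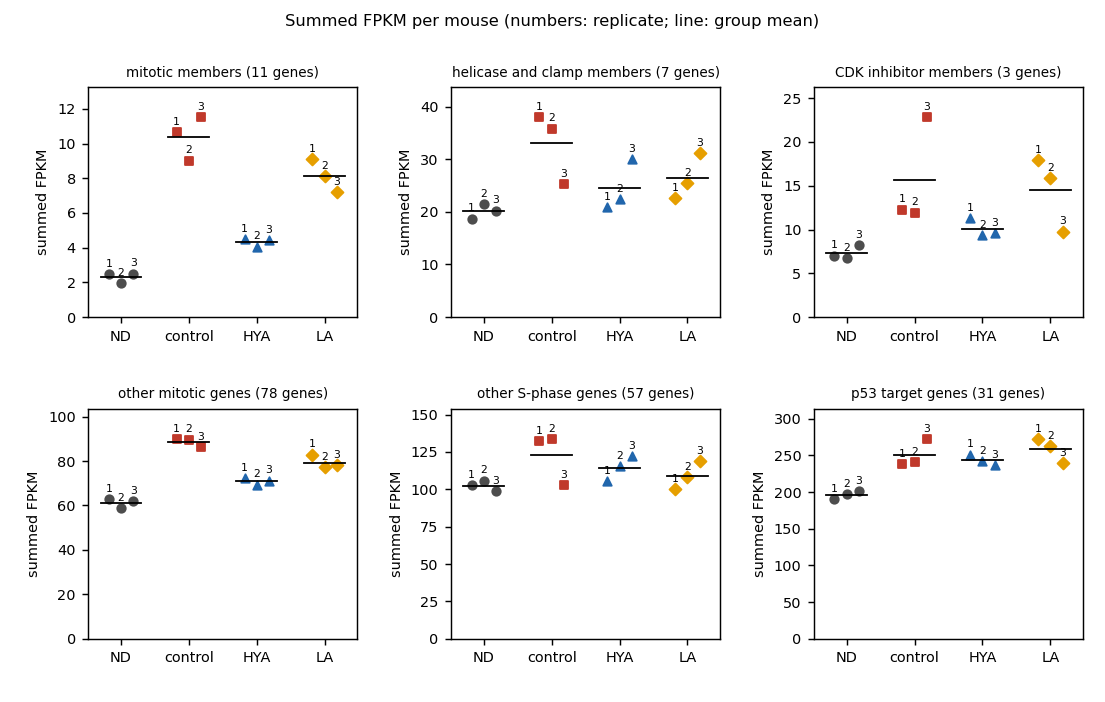
Summed FPKM per mouse of the mitotic, the helicase and clamp, and the CDK inhibitor genes (top) and of 3 lists of other genes (bottom), with replicate numbers at the points and a line at each group mean, and every axis starting at 0. The mitotic sums of ND (1.94 to 2.51) and HYA (4.07 to 4.50) lie apart from each other and below LA (7.19 to 9.12) and control (9.02 to 11.5), whereas control mouse 3 sits below the other control mice for the helicase genes and far above them for the CDK inhibitors.

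The same mice stood apart in genes of the circadian clock, which set many liver transcripts by time of day. The clock output gene *Dbp* was at 14.97, 16.2 and 23.3 FPKM in the ND-fed mice, 50.02, 53.5 and 4.53 in the control mice, 19.1, 45.5 and 57.0 in the HYA-treated mice and 9.45, 20.0 and 41.4 in the LA-treated mice. *Npas2*, which peaks in the opposite phase, was at 0.475, 0.512 and 0.453 FPKM in the ND-fed mice, 0.0679, 0.0293 and 1.84 in the control mice, 0.377, 0.127 and 0.0675 in the HYA-treated mice and 1.53, 0.910 and 0.0562 in the LA-treated mice. Control mouse 3 was at the low end for *Dbp* and the high end for *Npas2* among all 12 mice, and LA mice 1 and 2 and HYA mouse 1 lay on the same side within their groups. In each of the 4 groups the mouse with the lowest summed FPKM of 19 clock genes had the highest *Cdkn1a* and the lowest helicase and clamp sum. The hour at which each liver was taken is not given in the sources used here.

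A clock index was therefore added to the fit, after these values had been seen, as the mean log2 level of *Dbp*, *Tef* and *Per3* minus that of *Arntl*, *Npas2* and *Nfil3*. The index ran from -0.68 in control mouse 3 to 5.29 in control mouse 2. With it the count in control against ND-fed mice stayed at 27, with 26 higher and 1 lower. In HYA-treated against control mice the count rose from 7 to 17, all lower, while the share of all genes tested that were called lower went from 1.25% to 1.79%. The median log2 fold change was -0.71 in both fits. The standard error of *Cdkn1a* fell from 0.51 to 0.18, and its log2 fold change in HYA-treated against control mice became -1.003 ± 0.18 (SE, adjusted p = 0.0226). *Mcm6* became -1.07 ± 0.14 (SE, adjusted p = 0.00940), *Ccnd1* -0.81 ± 0.18 (SE, adjusted p = 0.0404) and *Ccnb2* -1.32 ± 0.28 (SE, adjusted p = 0.0330). The other genes gained were *Mcm2*, *Mcm4*, *Mcm5*, *Rrm1*, *Rrm2* and *Aurkb*, and the 7 genes of the first fit were all called again. The index is itself measured in these libraries, and what set it was not tested. It was chosen after clock genes, *Cdkn1a* and the helicase genes were seen to single out the same mice. The smaller errors and added calls of those genes are therefore not separate support for a difference.

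Other genes of the pathway, on lists that do not include the 37, were followed beside them. Of 71 other mitotic genes tested, 56 were higher in control mice than under ND and none was lower, with a median log2 fold change of 0.98, and 9 were lower with HYA than in control mice. Of 55 other S-phase genes, 23 were higher in control mice and none was lower, with a median of 0.45, and 2 were lower in HYA-treated mice. Of 44 other cell cycle regulators, 7 were higher and 1 was lower in control mice, with a median of 0.07, and none was called in HYA-treated mice. Beside these counts, 18.2% of all genes tested were called higher and 15.5% lower in control against ND-fed mice. With HYA 1.25% of all genes tested were called lower than in control mice. The medians of these 3 lists in HYA-treated against control mice were -0.60, -0.30 and -0.07, beside 0.00 for all genes tested. The other mitotic genes thus had the larger median differences in both comparisons.

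The other mitotic genes with the lowest p in control against ND-fed mice were *Arhgap11a*, *Ncapd2*, a condensin subunit gene, and *Kif20a*, a kinesin gene of cytokinesis. *Arhgap11a* was at a mean of 0.408 ± 0.0365 FPKM (SD, n = 3) under ND, 1.52 ± 0.183 in control, 0.868 ± 0.155 with HYA and 1.30 ± 0.00980 with LA. *Kif20a* was at 0.183 ± 0.0449, 1.02 ± 0.296, 0.427 ± 0.0704 and 0.776 ± 0.0804 in the same order, and *Ncapd2* at 0.557 ± 0.0567, 1.37 ± 0.1204, 1.05 ± 0.0525 and 1.21 ± 0.0851. In HYA-treated against control mice the lowest p were those of *Cdca3* (log2 fold change -1.20 ± 0.18 SE, adjusted p = 0.0145), *Arhgap11a* and the kinesin gene *Kif2c* (-1.19 ± 0.22 SE, adjusted p = 0.0267). Of the S-phase genes, the histone chaperone gene *Asf1b*, the repair gene *Brca1* and the helicase partner *Gins2* led in control against ND-fed mice, with log2 fold changes of 1.53, 1.19 and 1.26, and *Gins2* and *Brca1* were the 2 called lower in HYA-treated mice, at -0.97 and -0.75.

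Markers of several cell types moved with the diets beside the proliferation genes. In control against ND-fed mice 18.2% of all genes tested were called higher and 15.5% lower. There 9 of 12 hepatocyte markers were lower and none was higher. Of 19 macrophage markers 12 were higher and 2 were lower, and 7 of 12 endothelial, 9 of 13 stellate and fibroblast and 6 of 10 bile duct markers were higher. None of these was lower. Summed hepatocyte markers were 46235 to 48274 FPKM under ND, 30136 to 35329.8 in control, 39367 to 41374 with HYA and 33148 to 34149.9 with LA, and all 12 had a positive log2 fold change in HYA-treated against control mice. In HYA-treated against control mice 2 macrophage, 4 stellate and fibroblast and 3 bile duct markers were lower, no endothelial, lymphocyte, neutrophil or erythroid marker was called, and 1 hepatocyte marker was higher. Of all 14353 genes tested 180 (1.25%) were called lower and 165 higher in that comparison. Summed bile duct markers were 26.97 to 37.4 FPKM under ND, 87.8 to 186 in control, 47.4 to 60.1 with HYA and 90.9 to 149 with LA, and *Spp1*, which other cells also express, made up most of them. Summed stellate and fibroblast markers were 84.8 to 119.9 FPKM under ND, 152 to 189 in control, 143 to 158 with HYA and 165 to 202 with LA. Macrophage markers summed to 320.3 to 477 FPKM under ND, 493 to 541 in control, 359.8 to 495 with HYA and 487 to 519 with LA.

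Blood cells were followed by their own markers. Summed lymphocyte markers, mostly the immunoglobulin genes *Ighm* and *Igkc*, were 27.5 to 34.3 FPKM under ND, 34.9 to 49.4 in control, 31.9 to 55.4 with HYA and 35.3 to 49.4 with LA, with 1 of 14 tested markers higher and 2 lower in control against ND-fed mice. Erythroid markers summed to 282 to 387 FPKM under ND, 339 to 558 in control, 294 to 575 with HYA and 331 to 587 with LA, with 1 of 7 higher and 1 lower. Of the neutrophil markers 3 of 11 passed the filter and 1 was higher in control mice, and the defining marker *Ly6g* was at 0 in 11 of the 12 mice. Of all genes tested 18.2% were called higher and 15.5% lower in control against ND-fed mice. The part of each cell type in the transcripts of the 37 genes was not tested.

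**Figure D4:**
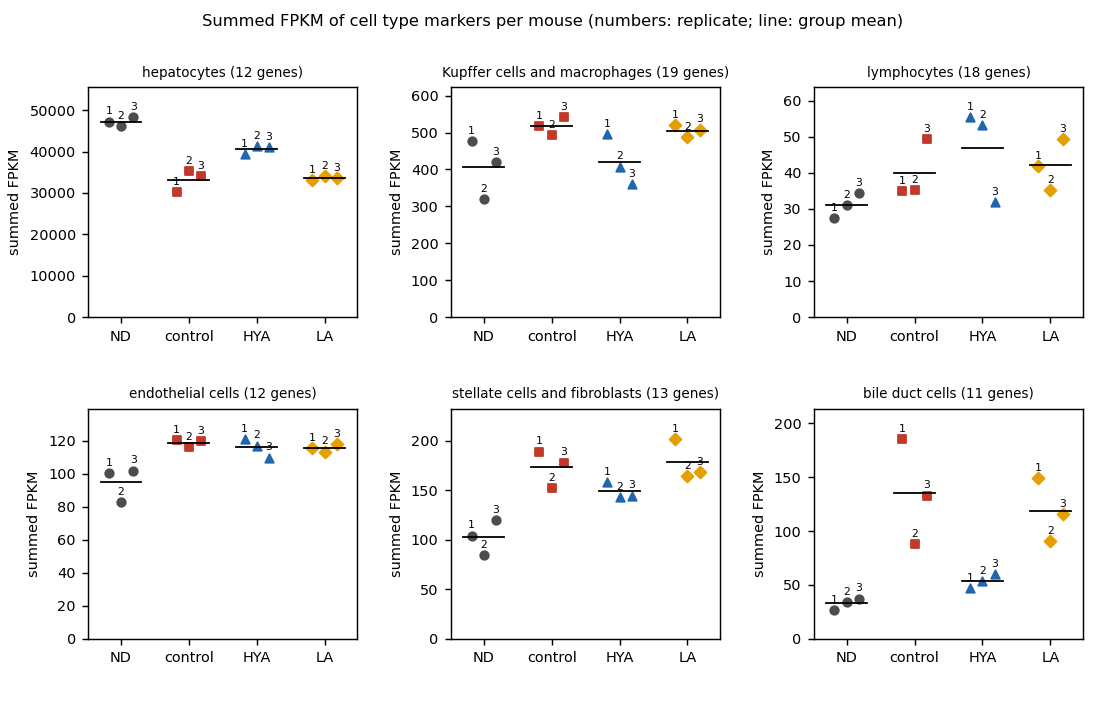
Summed FPKM per mouse of 6 lists of cell type markers, with replicate numbers at the points and a line at each group mean, and every axis starting at 0. The bile duct sum is at most 60.1 in the ND-fed and HYA-treated mice and at least 87.8 in the control and LA-treated mice, while the lymphocyte and endothelial sums of the 3 high-fat groups overlap.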

How the data were processed

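Liver RNA-seq of 12 mice in 4 diet groups was analysed. Per the labels and the submitters' processing notes, reads were cleaned with fastp, aligned with HISAT2 2.0.5 to GRCm38 and counted with featureCounts 1.5.0-p3, and the authors deposited 1 table of FPKM values per gene and mouse. The annotation release, the strand setting and the library total used for scaling are not given in the sources used here, and the coordinates of all 37 genes equal those of the mouse release GENCODE M21. For every listed value FPKM gave whole fragments at a tolerance of 0.02, so depth could be recovered, and 100% of values came out whole.

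Values were tested as log2(FPKM + 0.1) with limma 3.58.1 (R 4.3.3, trend) in 1 fit of all 12 mice, over genes with a mean of at least 10 recovered fragments, with Benjamini-Hochberg adjustment over 14353 genes and a threshold of 0.05. Intervals are 95%. The procedure was tested on simulated data. Every listed gene called in any comparison is described with all its values, and in other lists the 3 called genes with the lowest p. The genes and lists were chosen with earlier results of these data known. Groups came from the sample labels, and the mice are separate animals. Alternatives were limma-voom on recovered fragments, TPM, median-ratio scaling, a pseudocount of 1, a mean of at least 1 FPKM, no filter, a log2 fold change above 1, 2 groups at a time, a replicate block and leaving out each mouse. Scaling by recovered fragments, the calls of each gene list under each alternative and the clock index were added after seeing the data. Promoters were RefSeq sequences (GRCm38.p6), and 7 genes without one were not searched. Mouse numbers are not known to pair animals across groups: the deviations of same-numbered mice correlated at -0.34 to 0.22 (median 0.02). Those of differently numbered mice correlated at -0.33 to 0.35 (median -0.02).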

Additional observations from a re-analysis of the deposited data

How the results depend on the processing

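None of the calls among the 37 genes changed direction under the alternatives run, and 107 of 1020 checks of these calls fell short of the threshold. Single genes of the other lists were not followed through the alternatives. In control against ND-fed mice the count of 27 called genes stayed between 25 and 28 when a mouse was left out, was 27 with the replicate block, and was 14 where a mean of at least 1 FPKM was required, which left 22 of the 37 genes tested. In LA-treated against ND-fed mice the count was 23, 19 to 23 without a mouse, 24 with the replicate block and 10 at that minimum. In HYA-treated against control mice the count of 7 was 8 with median-ratio scaling, which left the counts of the other comparisons unchanged. It was 11 as TPM, 11 with scaling by recovered fragments, 11 with a pseudocount of 1, 17 with the clock index, 10 with voom and 10 with the replicate block. It was 3 at a mean of at least 1 FPKM, 2 with no filter on low values, 0 in a fit of both groups alone and 0 to 8 without a mouse. Over all genes tested 345 were called in the main fit and 602 as TPM. In HYA-treated against LA-treated mice the count of 1 was 2 as TPM, with scaling by recovered fragments, with a pseudocount of 1 or with the replicate block, 3 with voom, 0 at a mean of at least 1 FPKM or with no filter, and 0 to 1 without a mouse. In HYA-treated against ND-fed mice the count of 8 was 13 as TPM, 4 with voom, 4 with no filter, 3 with a pseudocount of 1, 3 at a mean of at least 1 FPKM, 1 where a log2 fold change above 1 was required as well, 7 with the replicate block and 3 to 7 without a mouse. In LA-treated against control mice it was 0 under all of these. Stricter and absent filters change the number of genes tested, and otherwise the cause was not tested. The mouse numbers are not known to pair the animals. The lowest genes rest on few fragments, which limits their precision.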

Other observations

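Targets of p53, the transcription factor that induces *Cdkn1a*, were followed as a further list. Of 30 tested, 16 were called higher and 1 lower in control against ND-fed mice, with a median log2 fold change of 0.45. The shares over all genes tested were 18.2% higher and 15.5% lower. None of the 30 was called in HYA-treated or LA-treated against control mice, where the medians were -0.12 and 0.05. Of all 14353 genes tested 180 (1.25%) were called lower and 165 higher with HYA, and 0% were called with LA. *Eda2r*, a receptor gene of the TNF family, was at 0.0785 ± 0.0303 FPKM under ND, 0.817 ± 0.188 in control, 0.627 ± 0.0765 with HYA and 0.794 ± 0.0856 with LA (SD, n = 3). *Ccng1*, the cyclin G1 gene, was at 10.8 ± 0.493 FPKM under ND, 18.4 ± 2.21 in control, 15.6 ± 0.851 with HYA and 18.4 ± 1.26 with LA (SD, n = 3), and *Sulf2*, a sulfatase gene, at 2.66 ± 0.122 FPKM under ND, 7.08 ± 1.36 in control, 5.78 ± 0.182 with HYA and 6.53 ± 0.405 with LA (SD, n = 3). Their LA means stayed near the control means, and the HYA means lay between ND and control. The summed FPKM of the list was 191 to 201 FPKM under ND, 238 to 272 in control, 237 to 251 with HYA and 239 to 272 with LA.

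Among other regulators of the cycle, the antiproliferative gene *Btg2* was at 3.35 ± 0.961 FPKM under ND, 10.9 ± 2.31 in control, 8.72 ± 1.60 with HYA and 10.3 ± 2.46 with LA (SD, n = 3). *Mycn*, a growth-promoting transcription factor gene, was at 0.245 ± 0.0986 FPKM under ND, 0.844 ± 0.306 in control, 1.39 ± 0.286 with HYA and 1.23 ± 0.0294 with LA (SD, n = 3), so its HYA and LA means exceeded its control mean. Of 19 clock genes, *Clock* and *Nr1d1* were called lower in control against ND-fed mice, where 15.5% of all genes tested were called lower. Their log2 fold changes were -0.89 ± 0.24 (SE, adjusted p = 0.0152) and -0.56 ± 0.17 (SE, adjusted p = 0.0243). None of the 19 was called with HYA or LA against control, where 1.25% of all genes tested were called lower with HYA and 0% were called with LA.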
